A study of Mus musculus with 1666 samples.

Results

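The cells described here were fibroblast-like cells of the mouse whisker follicle on embryonic day E13.0 that carried RNA of Sox2, a transcription factor of the dermal condensate. There were 75 of them among the 1614 cells of the series, which made up 75 of the 267 cells at E13.0 and 75 of its 210 fibroblast-like cells. A cell counted as fibroblast-like with Col3a1 at 50 TPM (a transcript level per length, scaled to the same total in every cell) or more, Pdgfra at 10 TPM or more and Trp63 under 10 TPM. Among these, Sox2 at 10 TPM or more made a cell Sox2-positive and Sox2 under 1 TPM made it Sox2-negative, with 84 negative cells and 51 cells in between, called intermediate. Sox2, Col3a1, Pdgfra and Trp63 chose the cells, so their levels are given as a description only.

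The study followed developing whisker follicles from E11.5 to E17.0 by RamDA-seq, which reads full-length total RNA of single cells. At E13.0, whole single follicles of transgenic embryos with a nuclear Kikume Green-Red protein, which turns from green to red under light, were photoconverted. Single cells positive for ITGA6 and the red protein and negative for CD31 were then sorted, and the Sox2-positive, intermediate and Sox2-negative cells all share this line, age and gate. The design text names basal epidermal cells as the target of the gate, whereas 210 of the 267 cells sorted at E13.0 (78.7%, exact 95% interval 73.2 to 83.4%) met the fibroblast rule. The cell names carry 3 plate codes at E13.0 and no embryo or litter, so E13.0 is 1 sample, no test between its cells was made, and the plates give the only spread. The intervals below cover counting error only.

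The dermal condensate is a cluster of fibroblasts that gathers beneath each hair placode, leaves the cell cycle and later becomes the dermal papilla. It answers Sonic hedgehog and Fgf20 from the placode, and sends Bmp4, Bmp antagonists, R-spondins and Fgf ligands back to the epithelium. Sox2, Tbx18 and Ptch1 mark it in back skin or whisker, and Prdm1 (Blimp1) marks the papilla precursors of the whisker.

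The Sox2-positive cells made up a like share of the fibroblast-like cells on each plate. On plate 1 they were 21 of 63 cells (33.3%), on plate 2 25 of 73 (34.2%) and on plate 3 29 of 74 (39.2%), and pooled they were 35.7% (exact interval 29.2 to 42.6%). Their Sox2 level ran from 10.1 to 148.5 TPM with a median of 31.1 TPM. The cells just under the limit had 8.996, 9.52 and 9.77 TPM and those just above it 10.1, 11.8 and 12.1 TPM, so no gap separates the groups. A median of 18299 gene symbols was detected in a Sox2-positive cell and 17773 in a Sox2-negative cell. Xist, the RNA of the inactive X, was at 1 TPM or more in 48% of the positive and 53.6% of the negative cells, so both groups held cells with and without it.

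Of the markers in the label, Sox2 set these cells apart by choice, Tbx18 had the same level in both groups, and Ptch1 was higher on average but present in all cells. Tbx18, a T-box factor of the condensate, averaged 145, 117 and 129 TPM in the positive cells of plates 1 to 3 and 132, 109 and 149 TPM in the negative cells. Its log2 fold, taken here and below as Sox2-positive over Sox2-negative on the log2(TPM + 1) scale of plate means, was 0.01 as a mean over plates. Ptch1, the hedgehog receptor and target, averaged 329, 433 and 299 TPM against 186, 180 and 138 TPM, with log2 folds of 0.82, 1.26 and 1.10. All 75 positive, 51 intermediate and 84 negative cells held both Tbx18 and Ptch1 at 10 TPM or more, so these markers describe the whole fibroblast-like population at E13.0. Sox18, another early condensate gene, reached 10 TPM in 17 of 75 positive cells (22.7%), 9 of 51 intermediate cells (17.6%) and 7 of 84 negative cells (8.33%). The cells are therefore called by their rule, Sox2-positive cells.

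Defining markers of other skin cell types were near 0. Sox10 of Schwann cells and melanoblasts, Atoh1 of Merkel cells and Krt5 of basal epidermis each reached 10 TPM in 0 of 75 Sox2-positive cells, which allows a share of up to 4%. Of 12 basal epidermal genes 10 averaged under 1 TPM, and of 11 nerve genes, 8 Merkel cell genes and 8 endothelial genes 5, 6 and 3 did. The summed level of the epidermal list was 15 to 17.8 TPM on the plates for positive cells and 5.68 to 7.57 TPM for negative cells, and most of it was Itgb4, a hemidesmosome integrin, at 9.97 against 2.13 TPM (log2 fold 1.80). Ngfr, the low-affinity neurotrophin receptor, was higher in the positive cells (34.2 against 10.4 TPM, log2 fold 1.65) and Piezo2, a touch channel, likewise (23.1 against 4.10 TPM, 2.28). The defining genes beside them, Sox10 at 0.101 TPM, Atoh1 at 0.0959 TPM and Krt20 at 0.0171 TPM, stayed near 0 in the positive cells. The endothelial list summed to 13.4 to 18.7 TPM in positive and 15.7 to 18.3 TPM in negative cells. Genes that respond to cell dissociation were lower in sum, at 149 to 236 TPM on the plates against 241 to 336 TPM. Of 9 considered, 2 were called lower (against 0.716% of all symbols), Jun (22.9 against 74.4 TPM, -1.63) and Fosb (16.9 against 50.1 TPM, -1.55), and 0 higher. The part of this difference in the results below was not tested.

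Across the transcriptome, more genes were higher in the Sox2-positive cells than lower. Of 14796 symbols with a mean of 5 TPM or more in either group, 397 (2.68%) had a log2 fold of at least 1 on all 3 plates and are called higher below, and 106 (0.716%) had a fold of -1 or less on all 3 plates and are called lower. Because the cells were split by Sox2, these shares are the background against which each gene list is read and are no test of the split. The median log2 fold over all 14796 symbols was 0.08. The intermediate cells had a mean between the other groups for 331 of the 397 higher and 96 of the 106 lower genes. The genes were called because the outer groups differ on every plate, which made this likely, so the counts describe them only. Among the exceptions were Prdm1 (2.59 TPM in intermediate against 3.69 TPM in negative cells) and Rspo3 (0.709 against 1.38 TPM). With 1 plate left out, a gene had to pass on 2 plates instead of 3, and both counts were larger: 588, 466 and 565 genes were higher without plates 1, 2 and 3, and the lower genes were 1.16%, 1.07% and 2.12% of those considered (318 genes without plate 3). In 34 positive and 41 negative cells matched for the number of detected symbols, 206 genes were called higher and 176 lower, so the excess of higher genes was smaller there (53.9% of calls against 78.9%).

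The genes with the largest positive folds were a secreted protease, inhibitors of BMP and Wnt signals, guidance receptors and transcription factors. Adamts20, a secreted metalloprotease that cleaves matrix proteoglycans, averaged 111, 145 and 93.4 TPM on plates 1 to 3 in the positive cells against 2.39, 0.987 and 1.37 TPM in the negative cells (log2 fold 5.52 ± 0.60, SD over 3 plates). It reached 10 TPM in 70 of 75 positive cells and 1 of 84 negative cells. Chrdl1, a chordin-like BMP antagonist, averaged 61, 64.9 and 57.6 TPM against 0.543, 1.80 and 1.37 TPM (4.84). On no plate did the positive mean of either gene come near the negative mean of any plate, which their choice by fold made likely. Stmn2, a stathmin that destabilises microtubules and is best known from neurons, averaged 112, 207 and 134 TPM against 6.29, 7.78 and 4.09 TPM (4.42). Gfra1, the co-receptor for glial cell line-derived neurotrophic factor, was at 165, 148 and 150 TPM against 6.56, 7.16 and 6.09 TPM (4.35), and reached 10 TPM in 72 of the 75 positive cells. Notum, an enzyme that inactivates Wnt ligands, averaged 33.6, 42.3 and 21.2 TPM against 0.963, 0.578 and 0.250 TPM (4.36), but only 30 of 75 positive cells held it at 10 TPM.

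The other named genes with higher levels included the netrin receptor Unc5c (28.6 against 0.782 TPM, log2 fold 4.03), the homeobox gene Hoxd3 (20.1 against 0.322 TPM, 4.01) and the AP-2 factor Tfap2a (23.8 against 0.757 TPM, 3.81). Grin2a, a glutamate receptor subunit, averaged 40.2 against 1.68 TPM (3.95), Anxa1, a phospholipid-binding annexin, 47.2 against 2.37 TPM (3.80), and the adhesion protein Lsamp 56 against 4.16 TPM (3.51). The laminin chains Lama2 (112 against 10.5 TPM, 3.29) and Lamc3 (20.4 against 1.13 TPM, 3.32), the phosphatase subunit Ppp2r2b (21.3 against 1.03 TPM, 3.47) and Efcc1 (27.2 against 2.20 TPM, 3.13) completed the set with Dll1, Prdm1, Cxcr4 and Rspo3, described with their pathways. For these genes the plate means of the 2 groups did not overlap. They were picked by their folds on every plate, which made this likely, so it describes them only. Sox2ot, a long noncoding RNA whose gene contains Sox2 on the same strand (mm10 chr3:34104270-34682619, with Sox2 at chr3:34650405-34652461), averaged 77 against 8.02 TPM (3.11), and reads shared by the pair could count for either. Hoxd3 overlaps Hoxd4 and Mir10b on its own strand and Haglr and Hoxd3os1 on the other, so its level may include reads of these.

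**Figure D1:**
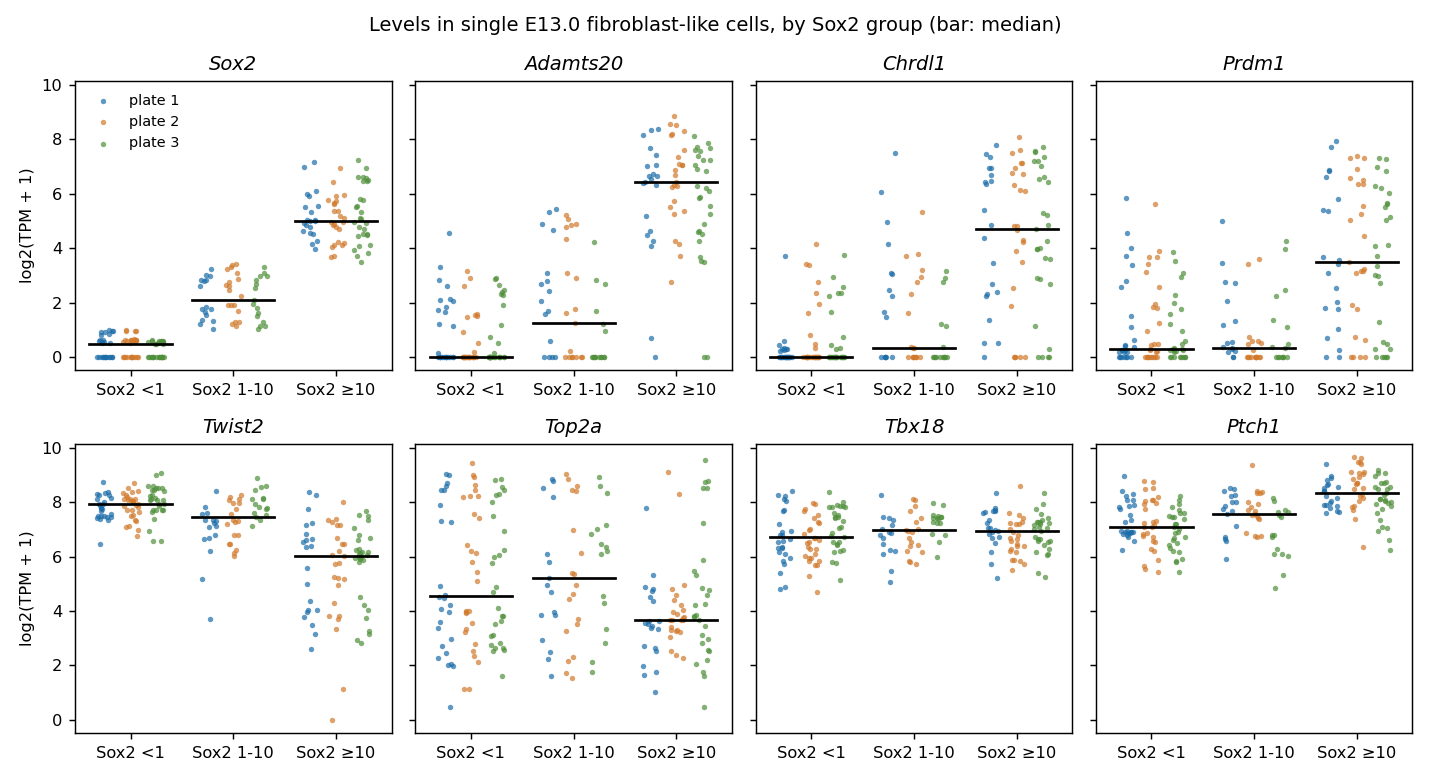
Levels of 8 genes in each of the 210 E13.0 fibroblast-like cells as log2(TPM + 1), with cells grouped by Sox2 level, coloured by plate and the black bar at the group median. Adamts20 separates most positive from negative cells, Prdm1 is spread from 0 to high values within the 75 positive cells, Twist2 is lower there, and Tbx18 lies at the same height in the 3 groups.

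**Figure D2:**
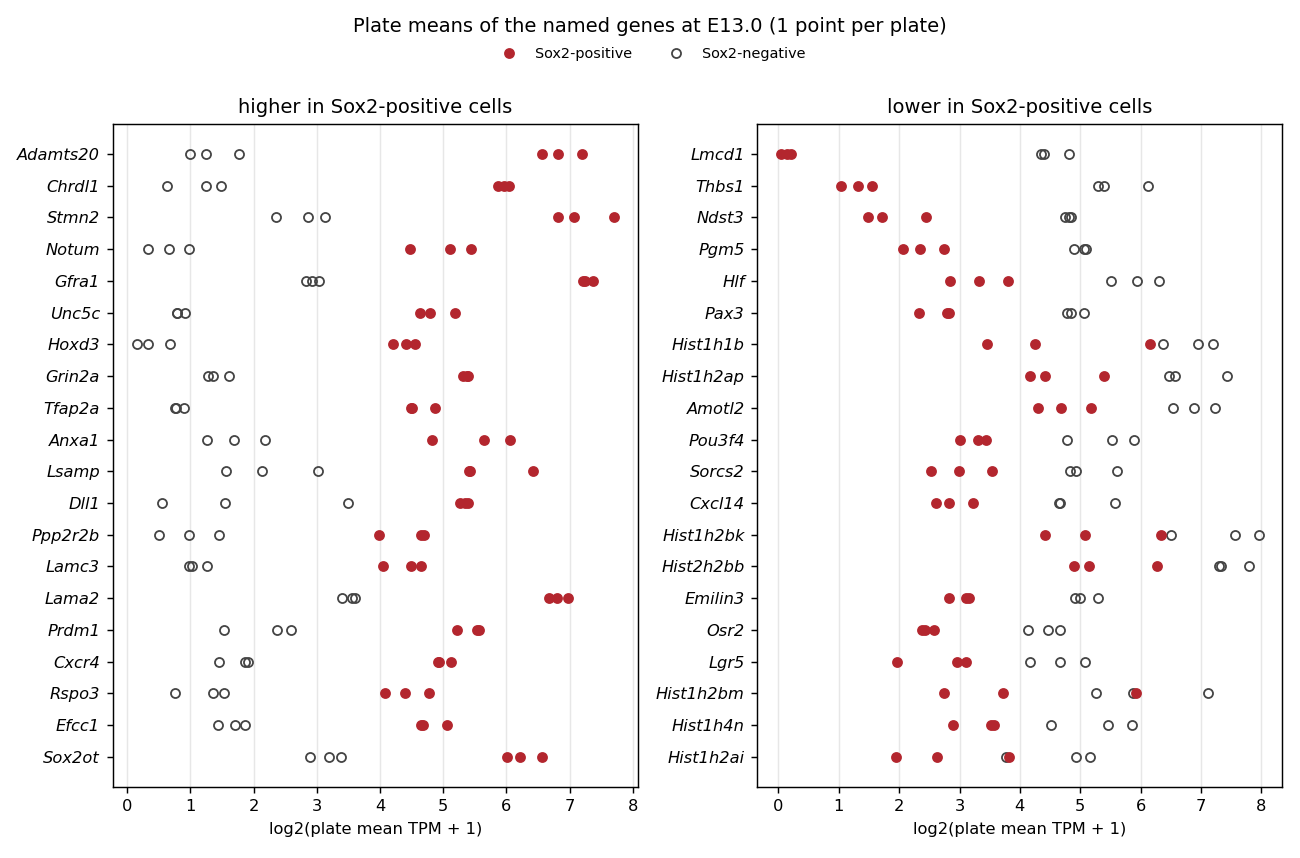
Mean level on each plate, as log2(TPM + 1), of the 20 named higher genes (left) and the 20 named lower genes (right) in Sox2-positive (filled) and Sox2-negative cells (open), with 1 point per plate. The filled and open points of every higher gene are apart, which the choice of genes made likely, while those of Hist1h2bm and Hist1h2ai overlap.

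The leading genes occurred together in the same cells. Of the 5 with the largest folds, Adamts20, Chrdl1, Stmn2, Notum and Gfra1, 52 of 75 positive cells held at least 4 at 10 TPM (34 cells held 4 and 18 held 5), whereas 0 of 84 negative cells held 3 or more. These 5 were picked on the same cells, so the counts describe them only. In 2 of the positive cells none of the 5 reached 10 TPM.

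Promoter sequence was looked at for the named higher genes because they move together with Sox2. RefSeq promoters (build GRCm38.p6, the 250 bases before each start) were found for 12 of the 20 genes, and 3 motifs were searched on both strands. ACAAT and CTTTGT were searched as letters of Sox factors, and GACCACCCA as the site of Gli factors. CTTTGT is also the core bound by Lef and Tcf factors, so a match does not tell these families apart. Matches of ACAAT and CTTTGT may share letters at their ends. A match to ACAAT or CTTTGT stood in 4 of the 12 genes and GACCACCCA in 0. These 4 are shown with Sox2 itself, 5′ to 3′ on the strand of the gene and with matched letters of either strand in capitals.

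Dll1, chr17:15376933-15377182, minus strand: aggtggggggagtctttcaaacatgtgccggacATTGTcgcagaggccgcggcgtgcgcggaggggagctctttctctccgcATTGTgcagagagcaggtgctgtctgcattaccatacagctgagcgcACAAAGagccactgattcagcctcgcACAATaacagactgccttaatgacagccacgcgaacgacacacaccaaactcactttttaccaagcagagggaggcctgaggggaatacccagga

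Prdm1, chr10:44458749-44458998, minus strand: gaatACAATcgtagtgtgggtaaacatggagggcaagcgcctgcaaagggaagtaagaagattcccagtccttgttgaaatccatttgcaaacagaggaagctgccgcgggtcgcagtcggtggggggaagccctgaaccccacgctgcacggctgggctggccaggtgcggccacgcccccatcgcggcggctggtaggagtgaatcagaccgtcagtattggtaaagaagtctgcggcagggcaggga

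Gfra1, chr19:58455399-58455648, minus strand: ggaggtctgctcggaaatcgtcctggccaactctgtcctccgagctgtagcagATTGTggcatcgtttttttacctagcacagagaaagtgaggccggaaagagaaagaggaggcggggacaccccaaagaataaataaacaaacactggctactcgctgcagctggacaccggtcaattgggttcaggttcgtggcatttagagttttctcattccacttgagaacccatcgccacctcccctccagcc

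Hoxd3, chr2:74711743-74711992, plus strand: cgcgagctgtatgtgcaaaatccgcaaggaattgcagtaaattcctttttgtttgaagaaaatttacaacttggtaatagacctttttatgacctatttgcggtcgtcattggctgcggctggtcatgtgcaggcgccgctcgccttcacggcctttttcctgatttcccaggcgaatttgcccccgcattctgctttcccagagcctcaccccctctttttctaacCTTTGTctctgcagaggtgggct

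Sox2, chr3:34649745-34649994, plus strand: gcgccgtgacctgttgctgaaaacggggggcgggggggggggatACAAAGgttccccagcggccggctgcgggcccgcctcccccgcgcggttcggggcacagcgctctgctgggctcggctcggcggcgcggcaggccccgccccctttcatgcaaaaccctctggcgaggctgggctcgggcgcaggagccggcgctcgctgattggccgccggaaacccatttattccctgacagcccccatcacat

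The Dll1 window holds 3 matches of ACAAT and 1 of CTTTGT, those of Prdm1 and Gfra1 hold 1 of ACAAT each, and those of Hoxd3 and Sox2 hold 1 of CTTTGT each. Dll1 has another RefSeq start, whose window holds no match. The starts of Prdm1, Gfra1 and Hoxd3 lie within the genes as annotated in GENCODE (chr10:44437177-44528501, chr19:58235604-58455909 and chr2:74711927-74748442). The Sox2 window ends at chr3:34649994 and does not reach the GENCODE start of the gene at chr3:34650405. Over all genes called higher, 210 of 397 matched the table and ACAAT stood in 21.6% of their promoters. The share was 18.5% for all genes considered and 27.7% for all promoters of the table. For CTTTGT the shares were 15.1%, 12% and 16.5%. GACCACCCA was found in 0 of 291 promoters of the higher genes and in 0.225% of all promoters. Such matches are letters in a window and show no binding.

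Genes known from dermal condensates and papillae were mostly higher. Of 25 genes in a list drawn up from such genes, 24 passed the filter on low values, 13 were called higher (against 2.68% of all symbols) and 0 lower, and the median log2 fold was 1.26. Like the lists below, it was chosen with earlier results of these data known, so its count is a description and no independent support. A positive cell held a median of 17 of these genes at 10 TPM, with a range of 10 to 24, and a negative cell 11, with a range of 6 to 18. The ranges overlap. Prdm1, a repressor that marks whisker papilla precursors, averaged 46.2, 45.3 and 36.3 TPM on the plates against 5.06, 4.14 and 1.88 TPM (log2 fold 3.28). Cxcr4, the receptor of the chemokine Cxcl12, averaged 29.6, 33.8 and 29.1 TPM against 2.78, 2.66 and 1.73 TPM (3.24). Inhba, the activin subunit, was at 84.7, 86.1 and 73.2 TPM against 14.4, 8.92 and 6.003 TPM (3.01). Hey1 (2.26), Alx4 (1.35), Itga8 (1.78), Corin (2.48), Wif1 (1.53) and the cell cycle inhibitor Cdkn1a (1.18) were also called higher. Foxd1 (0.35), Trps1 (0.27), Ncam1 (-0.13), Crabp1 (-0.44) and Enpp2 (-0.23) were not called. Among cells with Xist under 1 TPM, 39 of each group, 8 members of the list were called higher.

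Hedgehog signalling showed lower co-receptors and no called target rise. Gas1, Cdon and Boc, the membrane proteins that help Ptch1 bind its ligand, were the 3 of 8 receptors and transducers that were called, all lower (background 0.716%). Gas1 averaged 15.6, 15.4 and 18.6 TPM in positive and 42.9, 43.4 and 47.4 TPM in negative cells (log2 fold -1.38). Cdon averaged 7.04, 8.90 and 6.71 TPM against 28.4, 25 and 24.7 TPM (-1.67), and Boc 10.8, 8.92 and 9.53 TPM against 25.1, 20.2 and 23.7 TPM (-1.16). The plate means of the groups did not overlap, which the call on every plate made likely. Smo (-0.03), Sufu (-0.08) and Gli3 (-0.09) had folds near 0. The targets Gli1 (128 against 69.6 TPM, 0.88) and Hhip (18.6 against 9.20 TPM, 1.02) had positive folds that missed the limit on at least 1 plate. Osr1 (0.692 against 14.4 TPM, -3.23) and Osr2 (4.52 against 20.7 TPM, -1.96), odd-skipped factors of facial mesenchyme, were called lower. The ligands Shh, Ihh and Dhh summed to under 1 TPM in both groups, 0.404 and 0.300 TPM. Without cells with G2/M genes, 1 of the co-receptors was called lower, and 0 were among cells with Xist under 1 TPM. Their mean folds over all settings were -2.26 to -1.16 for Gas1, -2.72 to -1.28 for Cdon and -1.57 to -0.61 for Boc.

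Wnt genes differed in both directions. Of 7 Wnt inhibitors and R-spondins considered in their list, 2 were called higher (Frzb and Rspo1) and 1 lower (Sostdc1), against 2.68% and 0.716% of all symbols. The summed level of the list was lower in positive cells (140 against 232 TPM). The inhibitor Sfrp2 held most of that sum, at 73.9 against 193 TPM (log2 fold -1.31), and missed the call on plate 1. Notum, given above, was the only one of 11 Wnt targets and transducers called higher, and Twist2, a bHLH factor of dermal fibroblasts, the only one called lower. Twist2 averaged 89.8, 72.2 and 72.8 TPM in positive cells against 233, 241 and 281 TPM in negative cells (log2 fold -1.67). Its plate means did not overlap, which its call on every plate made likely. Rspo3, an R-spondin that strengthens Wnt signals, averaged 26.3, 20.1 and 16 TPM against 1.56, 1.89 and 0.697 TPM (3.20), although its fold was 0.99 in the cells matched for detected symbols, and Rspo1 15.9, 38.7 and 7.04 TPM against 2.76, 1.07 and 1.15 TPM (2.78). The secreted inhibitor Frzb (7.84 against 0.247 TPM, 2.77) and the ligand Wnt16 (7.09 against 0.541 TPM, 2.33) were also higher. Sostdc1, a Wnt and BMP inhibitor, was lower (5.66 against 15.9 TPM, -1.38). Lef1, the nuclear partner of beta-catenin, averaged 563, 575 and 608 TPM against 258.5, 288.5 and 287.9 TPM (1.06) and missed the call with 0.99 on plate 2. Axin2, the common feedback target, was at 24.1 against 16.6 TPM (0.53), and Ctnnb1 at 913 against 737 TPM (0.32).

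Bmp4 and Bmp3, counted above in the condensate list, and several BMP antagonists were higher. Of 6 other BMP ligands in their own list, 1 was considered and 0 were called. Bmp4 averaged 33.3, 35 and 29 TPM in positive cells against 9.67, 4.81 and 3.27 TPM (log2 fold 2.37), and Bmp3, a ligand that opposes others, 22.8, 25.3 and 19.9 TPM against 4.84, 1.99 and 3.11 TPM (2.50). Bmp7 was at 87.1 against 41.8 TPM (1.03) and was not called. Of 6 antagonists considered, Chrdl1, Fst and Nog were called higher (against 2.68% of all symbols). Fst, the activin and BMP binder follistatin, averaged 15.8, 18.1 and 12.1 TPM against 0.153, 0.116 and 0.335 TPM (3.75), and Nog, noggin, 5.55, 7.83 and 7.10 TPM against 1.18, 0.922 and 0.842 TPM (1.98). Fst was at 10 TPM in 28 of 75 positive cells and 0 of 84 negative cells. Among the response genes Id3 was called higher, at 31.4, 47.8 and 43.1 TPM against 6.27, 7.67 and 3.95 TPM (2.60), while Id2 was at 53.1 against 19.5 TPM (1.31) and missed the call on plate 1.

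Fgf10, a ligand from mesenchyme to epithelium, averaged 29, 28 and 28 TPM against 11.6, 9.73 and 8.75 TPM (log2 fold 1.42). The Fgf response factor Etv1 was higher (9.001 against 1.71 TPM, 1.89), and it was the only one of 10 Fgf receptors and response genes that was called (against 2.68% of all symbols called higher). Fgfr1 was at 858 against 524 TPM (0.72).

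Notch ligands and receptors were higher in the same cells. Jag1 averaged 43.4, 63.8 and 59.2 TPM in positive cells against 17.1, 7.23 and 9.30 TPM (log2 fold 2.27). Dll1 was at 37.6, 41.2 and 39.6 TPM against 10.3, 1.91 and 0.460 TPM (3.48), so it was the negative cells that varied between plates. Notch1 was at 148, 193 and 205 TPM against 71.5, 69.4 and 88.4 TPM (1.24), and Notch3 at 46.3 against 19.5 TPM (1.21). These 4 were called higher of 8 considered (against 2.68% of all symbols). Notch2 (-0.52) and the target Hes1 (-0.20) had negative folds, and the target Hey1 was higher, as given above. The Notch count fell to 2 under the stricter fibroblast rule, to 2 without cells with markers of other types and to 0 in cells matched for detected genes. The mean fold of Dll1 was 2.42 to 4.79 over all settings, while those of Jag1 (0.86 to 3.12), Notch1 (0.81 to 1.63) and Notch3 (0.99 to 1.48) reached below 1.

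**Figure D3:**
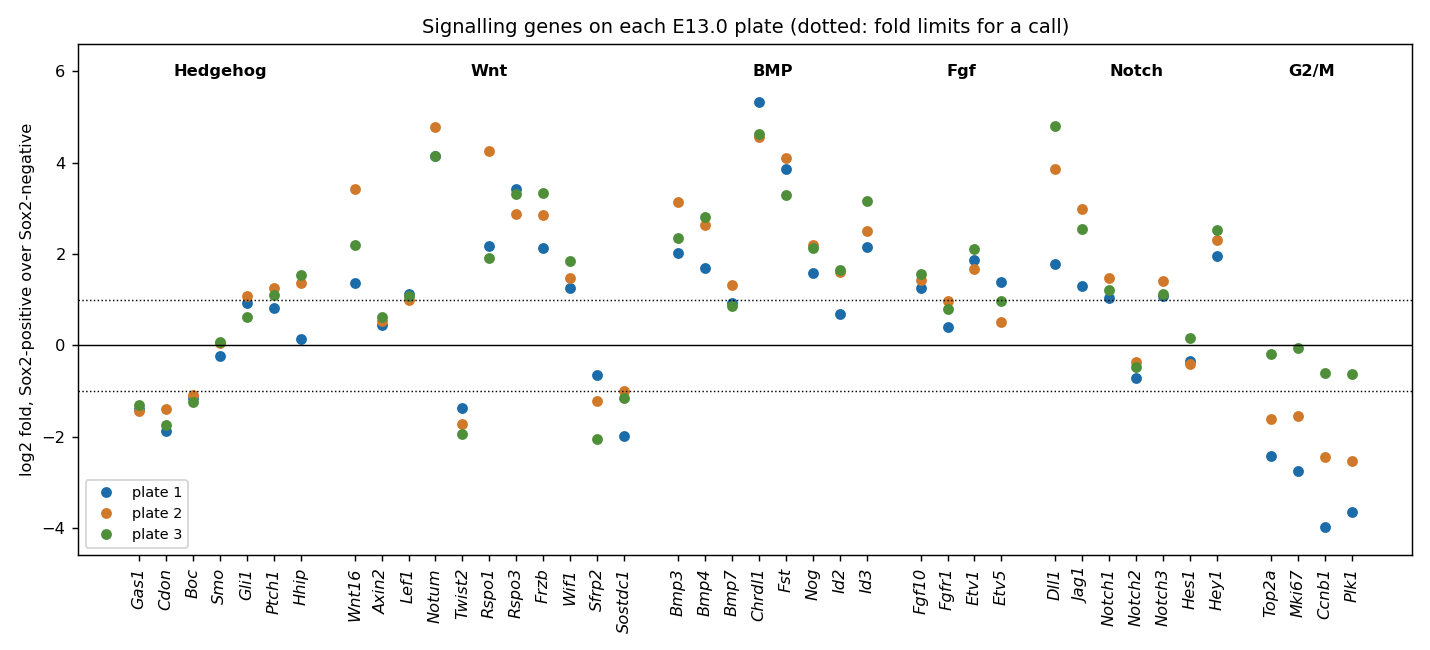
Log2 fold of Sox2-positive over Sox2-negative cells on each plate (colours) for signalling and mitosis genes, with dotted lines at the limits of 1 and -1. Chrdl1, Notum and Fst lie far above 1 on all plates, Gas1, Cdon, Boc and Twist2 below -1, and the mitosis genes lie closest to 0 on plate 3.

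Of 29 guidance, chemokine and adhesion genes, 6 were called higher and 5 lower, against 2.68% and 0.716% of all symbols. The chemokine receptor Cxcr4 was higher, as given above, whereas its ligand Cxcl12 averaged 0.965, 0.969 and 1.36 TPM in positive cells against 8.80, 11.6 and 8.37 TPM in negative cells (log2 fold -2.33). Ackr3, the scavenger receptor for the same ligand, was lower too (2.06 against 9.40 TPM, -1.78), and so was the chemokine Cxcl14 (6.52 against 31.6 TPM, -2.07). The receptor and its ligand thus stood highest in different cells. The semaphorins Sema3a (32.4 against 7.02 TPM, 2.18), Sema3c (14.6 against 4.69 TPM, 1.44) and Sema3d (13.4 against 1.82 TPM, 2.35) and their receptor Nrp2 (132 against 57.8 TPM, 1.18) were higher. The ephrin receptor Epha3 averaged 52.5, 71.6 and 43.4 TPM against 4.54, 10.6 and 10.1 TPM (2.64), while the ephrins Efna5 (-1.47) and Efnb2 (14 against 47.5 TPM, -1.69) were lower. Alcam, an adhesion molecule, was higher (21.8 against 5.89 TPM, 1.71).

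Transcription factors of facial mesenchyme differed in both directions, with 5 of 15 considered called higher and 1 lower, against 2.68% and 0.716% of all symbols. Runx2, the bone-lineage factor, averaged 77.3, 58.6 and 68.6 TPM in positive cells against 12.7, 9.86 and 9.47 TPM (log2 fold 2.57) and reached 10 TPM in 71 of 75 cells. Lhx6 (37.3 against 6.44 TPM, 2.36), Eya1 (32.8 against 5.22 TPM, 2.50), Prrx2 (53.6 against 19.3 TPM, 1.43) and Tfap2a were higher too. Pax3, a neural crest factor, averaged 6.09, 4.003 and 5.95 TPM against 27.6, 32.5 and 26.6 TPM (-2.25). Sox9 was the only one of 5 other Sox factors called (9.46 against 1.95 TPM, 1.80). A cartilage and bone list summed to 34.3 to 47.2 TPM on the plates in positive cells and 23.5 to 32.3 TPM in negative cells, with 0 of 2 members considered called. In it Acan, a cartilage proteoglycan, was at 25.8 against 10.9 TPM, the bone factor Sp7 at 3.95 against 0.373 TPM and Col2a1, the cartilage collagen, at 10.8 against 15.1 TPM. Its part in the levels of Runx2 and Sox9 was not tested.

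Fibrillar matrix genes differed little, and basement membrane genes were higher. Of 27 dermal matrix genes considered, 0 were called higher and Lox, which crosslinks collagen, was called lower (1.64 against 17 TPM, log2 fold -2.76). Col1a1 was at 853 against 772 TPM (0.15). Of 11 basement membrane genes, Lama2, Col4a2 (29 against 9.82 TPM, 1.49), Nid1 (182 against 52.1 TPM, 1.80) and Frem1 (77.8 against 23.7 TPM, 1.72) were called higher and 0 lower. The shares of all symbols were 2.68% and 0.716%. The summed level of that list was 620 to 724 TPM on the plates for positive and 243 to 276 TPM for negative cells.

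The genes with the largest negative folds, which stood higher in the Sox2-negative fibroblast-like cells, included matrix proteins, enzymes, transcription factors and histones. Lmcd1, a LIM-domain cofactor, averaged 0.150, 0.0329 and 0.0999 TPM in positive cells against 20.2, 19.4 and 27 TPM in negative cells (log2 fold -4.39), and reached 10 TPM in 0 of 75 against 38 of 84 cells. Thbs1, the matrix protein thrombospondin 1, averaged 1.04, 1.49 and 1.92 TPM against 38.1, 68.7 and 40.9 TPM (-4.30). The groups stood far apart for both, which the choice of genes by fold made likely. Ndst3, a heparan sulfate enzyme, was at 2.84 against 26.9 TPM (-2.92), Pgm5 at 4.32 against 31.4 TPM (-2.63), and the bZIP factor Hlf at 9.33 against 61 TPM (-2.60). Amotl2 (26.2 against 119 TPM, -2.16), the POU factor Pou3f4 (8.60 against 43.2 TPM, -2.14), Sorcs2 (7.43 against 34.9 TPM, -2.11), Emilin3 (7.22 against 32.7 TPM, -2.03) and the R-spondin receptor Lgr5 (5.77 against 24.6 TPM, -1.95) were also named. Lmcd1, Thbs1 and Ndst3 were already low in intermediate cells (3.68, 8.69 and 8.82 TPM).

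Cell cycle genes were lower in the Sox2-positive cells, by an amount that depended on the plate. Of 15 S phase genes, Tyms (22.7 against 52.1 TPM, log2 fold -1.15), Cdt1 (21.6 against 59.4 TPM, -1.44) and Uhrf1 (49 against 128 TPM, -1.37) were called lower (against 0.716% of all symbols), and the median fold was -0.86. Of 15 G2/M genes 0 were called, with a median of -1.48. The G2/M marker Top2a averaged 22.6, 46.2 and 98.1 TPM in positive cells against 126, 143 and 111 TPM, and Mki67 9.998, 22.7 and 37.4 TPM against 72.9, 68.7 and 39 TPM. Plate 3 stood apart, with folds of -0.18 and -0.06 for these genes. The summed level of the 15 genes was 112, 176 and 394 TPM on plates 1 to 3 in positive cells and 692.5, 614 and 525 TPM in negative cells, so it was lower on every plate and by least on plate 3, where 14 of 15 genes had a negative fold with a median of -0.56. Cells with at least 3 of the 15 G2/M genes at 10 TPM made up 57.1% of positive and 57.7% of negative cells on plate 1, 44% and 75.9% on plate 2, and 58.6% and 72.4% on plate 3. Pooled, the shares were 40 of 75 cells (53.3%, exact interval 41.4 to 65%) and 58 of 84 (69%, 58 to 78.7%). So 40 of the 75 Sox2-positive cells passed this low limit at E13.0, which did not follow the level of mitotic RNA on plate 1. The shares there were alike, although the summed level was 112 against 692.5 TPM. Median Top2a was 22.5 TPM in negative cells. It was 11.8 TPM in positive cells with Sox2 from 10 to 50 TPM, and also in those above. Replication-dependent histones followed: of 53 Hist symbols considered, 14 were called lower (against 0.716% of all symbols) and 0 higher, with a median fold of -1.54. Hist1h1b averaged 10.02, 18.0 and 70.4 TPM against 123, 81.5 and 146 TPM (-2.22). Near-identical histone copies can share reads, so single members are uncertain. Among cells under the G2/M limit, 35 positive and 26 negative, the fold of Hist1h1b was 0.16, whereas that of Adamts20 was 5.37. The S phase count ranged from 0 to 6 genes over the settings, and it was 0 without cells that held markers of other types.

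The Sox2-positive cells were of uneven composition. Of the 20 named higher genes, 11 were at 10 TPM in at least 60% of the 75 cells and 9 in fewer: Notum, Unc5c, Tfap2a, Lsamp, Ppp2r2b, Lamc3, Prdm1, Rspo3 and Efcc1. Most of the 9 partly detected genes were found in the same cells. Ppp2r2b and Lamc3 followed less closely. They reached 10 TPM in 24 and 20 of the 38 positive cells with Prdm1 at 10 TPM, and in 20 and 11 of the 37 without. In 32 cells 0 to 2 of the 9 genes reached 10 TPM, in 8 cells 3 or 4, and in 35 cells 5 or more. Cells with 5 or more were 8 of 21 on plate 1, 13 of 25 on plate 2 and 14 of 29 on plate 3, and there were 0 among the 135 intermediate and negative cells. These genes were picked on the same cells and the split was made after their values were seen, so the counts are a description. The cells with 5 or more had a median Sox2 of 48.4 TPM and 18856 detected symbols, against 22.3 TPM and 18061 for the cells with 0 to 2. The part of this difference in detected symbols in the result was not tested.

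**Figure D4:**
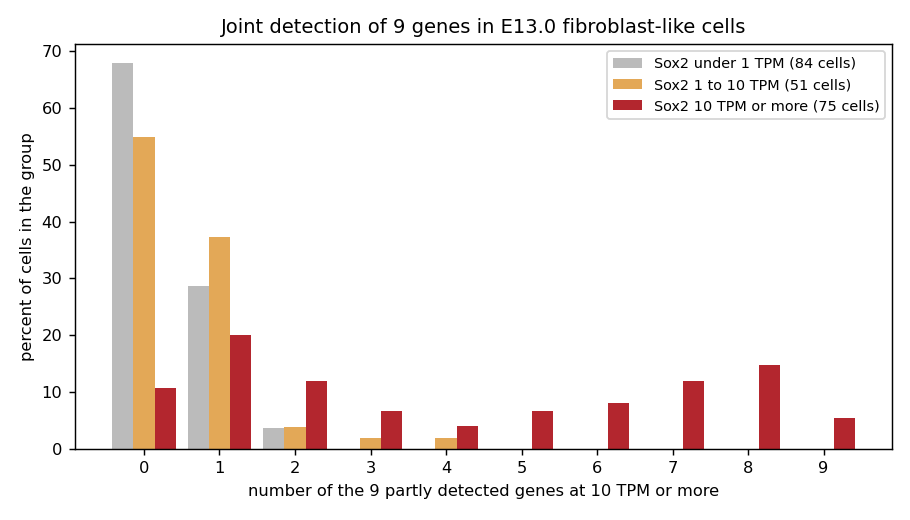
Percent of cells in each Sox2 group by how many of 9 named genes (Notum, Unc5c, Tfap2a, Lsamp, Ppp2r2b, Lamc3, Prdm1, Rspo3, Efcc1) they held at 10 TPM or more. Negative and intermediate cells lie at 0 to 2 with 2 exceptions, whereas Sox2-positive cells cover the whole axis, with 32 cells at 0 to 2 and 35 cells at 5 or more.

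Prdm1 was at 10 TPM or more in 38 Sox2-positive cells, 10, 13 and 15 on the plates, and under it in 37. The cells with Prdm1 had a median Sox2 of 48.8 TPM and 18723.5 detected symbols, against 21.9 TPM and 18047 for those without. The part of these differences in the values and correlations below was not tested. With Prdm1, the Notch ligand Jag1 averaged 100 TPM, and without it 11.1 TPM, which is near the 11 TPM of the Sox2-negative cells. Rspo3 was at 38.3 and 1.70 TPM, Fst at 27.7 and 2.11 TPM, Tfap2a at 45.5 and 1.62 TPM, Bmp4 at 52.6 and 11.2 TPM and Bmp7 at 142 and 29.4 TPM. Twist2 went the other way, with 35.8 TPM beside Prdm1 and 120 TPM without it, where the Sox2-negative cells had 252 TPM. Ccnd2, a D cyclin, was at 80.1 and 280 TPM, the T-box factor Tbx15 at 3.38 and 24.5 TPM, and Col1a1 at 652 and 1042 TPM. Other genes were high in both kinds of Sox2-positive cell: Chrdl1 at 73.4 and 48.3 TPM, Anxa1 at 56.6 and 39.9 TPM, Gfra1 at 203 and 103 TPM and Adamts20 at 172.6 and 57.1 TPM. Ptch1 (365 and 338 TPM), Tbx18 (135 and 123 TPM) and Top2a (60.5 and 58.8 TPM) differed little.

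Cell by cell, over the 75 Sox2-positive cells, the Spearman correlation with Prdm1 was 0.82 for Jag1, with 0.79, 0.83 and 0.86 within the plates, and 0.82 for Rspo3, with 0.88, 0.82 and 0.81. It was -0.79 for Twist2 (-0.79, -0.81 and -0.78), and 0.10 for Chrdl1 and 0.11 for Anxa1. Sox2 itself had 0.65. The cells share plates and sequencing, the genes were picked from lists, and a correlation over cells is given without a test.

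Several of these genes also differed with the level of Sox2. The 54 cells with Sox2 from 10 to 50 TPM averaged 26.1 TPM of Prdm1, 108.3 TPM of Stmn2 and 15.6 TPM of Unc5c, and the 21 cells with Sox2 above 50 TPM 83.1, 265 and 62.4 TPM. Twist2 averaged 91.6 TPM in the lower band and 40.7 TPM in the upper. Tbx18 (127 and 136 TPM), Ptch1 (355 and 344 TPM) and the median number of detected symbols (18232 and 18353) were close in both bands.

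The same rule was applied to later stages to see which genes still accompanied Sox2. It gave 35 Sox2-positive and 73 Sox2-negative fibroblast-like cells on the 4 plates of E15.0, and 25 and 17 on the 3 plates of E17.0. E14.0 had 10 and 5, too few to describe, and E13.5 had 2 fibroblast-like cells. The negative cells were 52, 10, 7 and 4 on plates 1 to 4 of E15.0, and 6, 5 and 6 on those of E17.0. Each plate had equal weight in the mean folds, so most plates enter with few negative cells. Stage and plate cannot be told apart, and later stages share no cells with E13.0. Of the genes higher at E13.0, 231 of 345 considered (67%) had a mean log2 fold of at least 1 at E15.0, where 8.46% of all symbols did, and 185 of 325 (56.9%) at E17.0, where 11.6% did. Of the lower genes 52 of 95 (54.7%) had a fold of -1 or less at E15.0 (3.89% of all symbols), and 43 of 78 (55.1%) at E17.0 (7.49%).

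Chrdl1, Hoxd3 and Tfap2a kept folds of 4.44, 4.17 and 4.28 at E15.0 and 4.25, 4.59 and 3.85 at E17.0, with positive folds on every plate of both stages. Fst averaged 177 TPM in positive cells at E15.0 and 129 TPM at E17.0, against 15.3 TPM at E13.0. Id3 was at 218 and 225 TPM, against 40.8 TPM at E13.0. Tbx18 and Ptch1, with folds of 0.01 and 1.06 at E13.0, had folds of 1.03 and 2.92 at E15.0 and 3.92 and 3.32 at E17.0. For Tbx18 this went with a negative-cell level of 130 TPM at E13.0, 27.9 TPM at E15.0 and 3.83 TPM at E17.0, while the positive cells had 130, 59.3 and 64.6 TPM. Other genes lost their difference: Prdm1 had folds of 0.79 and -0.69, Bmp4 of -0.56 and -0.43, and Bmp3 of -0.39 and -0.29. For Bmp4 the negative cells rose from 5.92 TPM at E13.0 to 79 TPM at E15.0 and 33 TPM at E17.0. Lmcd1 stayed lower at E15.0 (-2.75) but was near 0 in both groups at E17.0 (1.10 and 0.116 TPM), and Pgm5 stayed lower at both (-3.57 and -3.69). The plates of E15.0 were uneven: on plate 1, 10 of 73 fibroblast-like cells were Sox2-positive (13.7%), against 35%, 50% and 60% on the others, and the fold of Fst ran from -0.78 to 8.10 over the plates. Differences between stages were not tested, with 1 sample a stage.

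**Figure D5:**
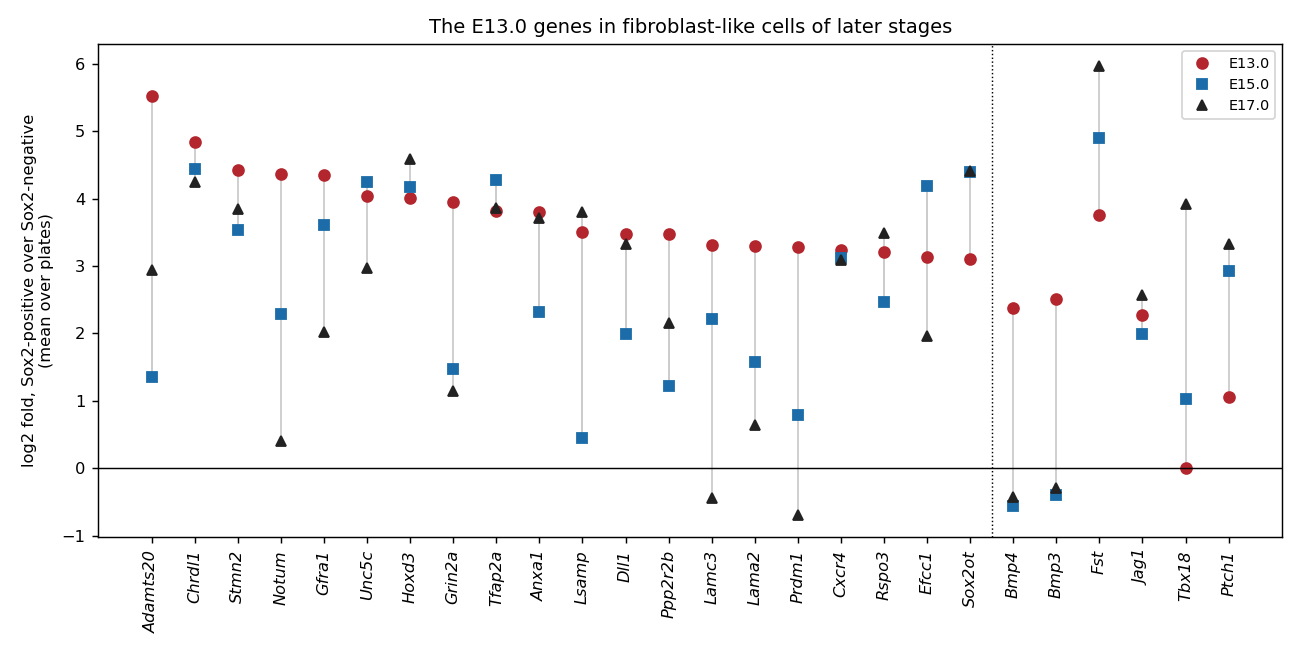
Mean log2 fold over plates of Sox2-positive over Sox2-negative fibroblast-like cells at E13.0 (circles), E15.0 (squares) and E17.0 (triangles) for the 20 named higher genes and, right of the dotted line, 6 more. Chrdl1, Hoxd3, Tfap2a and Cxcr4 stay above 3 at all 3 stages, Prdm1, Lamc3, Bmp4 and Bmp3 lie below 0 at E17.0, and Tbx18 and Ptch1 are higher at the later stages.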

How the data were processed

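RamDA-seq libraries of single cells, 1 sorted per well, were measured. The values are TPM as the authors deposited them, in a table of 49662 gene symbols in 1614 cells on 18 plates; 52 of the 1666 labelled cells are called low quality by the labels and were not analysed here. The submitters' processing notes name bcl2fastq 1.0, HISAT2 2.0.4, featureCounts of Subread 1.5.0 and the mm10 build; the annotation release and counting strand are not given in the sources used here. The deposited TPM columns sum to 991213 to 999516, so the depth of each cell is unknown. No doublet caller was run.

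Cells were chosen by the TPM limits given above, and plate means were compared as log2(TPM + 1) ratios averaged over the 3 E13.0 plates with equal weight. A pseudocount understates the fold of low genes. Genes with a mean of 5 TPM in either group were considered and were called with a log2 fold of at least 1 in size, in 1 direction on all 3 plates. With 1 sample a stage no test was made. Named genes were the 20 with the largest folds each way among called genes with a mean of 20 TPM in the higher group and 10 TPM in at least 20% of its cells, leaving out predicted genes, pseudogenes, ribosomal, mitochondrial and small RNAs and the genes of the rule; members of gene lists, Sox2ot and Xist were added. The members and lists were chosen with earlier results of these data known. Intervals are exact Clopper-Pearson at 95%, and the limit for 0 cells is 3 cells of the total. Coordinates are from GENCODE M21 (mm10) and promoters from RefSeq (GRCm38.p6). The calling was checked on simulated cells drawn from the Sox2-negative cells, with planted changes well past the fold limit in genes well above the filter. The check does not cover genes near these limits or groups that differ in detected symbols. The work was done in Python 3.11.15 with scipy 1.17.1, pandas 2.3.3 and numpy 2.4.6, and plots were drawn with matplotlib 3.10.9. The result of 1 gene is not reported here. Other pseudocounts, filters, scalings, cell rules and left-out plates were tried.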

Additional observations from a re-analysis of the deposited data

How the results depend on the processing

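The counts of called genes moved with the settings, and most named folds did not change side of the limit. Of the genes considered, 2.68% were called higher and 0.716% lower; these shares were 1.41% and 0.284% with a pseudocount of 5 TPM (208 and 42 genes), 4.92% and 2.31% with plates pooled (728 and 341), 3.90% and 1.67% with Sox2 at 50 TPM or more (598 and 256), 1.42% and 1.22% in cells matched for detected symbols (206 and 176), and 2.33% and 0.766% with a filter at 20 TPM (155 and 51), where fewer genes were considered. Leaving out each plate in turn, which also lowers the plates to pass from 3 to 2, gave 3.21 to 3.93% higher and 1.07 to 2.12% lower genes. Among fibroblast-like cells the positive share was 60% with a Sox2 limit of 1 TPM, 10% with 50 TPM and 33.8 to 36.7% without each plate. The following list counts and the settings for G2/M genes and Xist were chosen after seeing the data. The 13 condensate genes were 8 in cells with Xist under 1 TPM, and 13 to 14 without each plate. The 3 S phase genes were 6 with the mean of log2 values, 6 with plates pooled, 5 with Sox2 at 50 TPM or more, 0 without cells with markers of other types, 0 in matched cells, 0 with Xist under 1 TPM, 0 with Xist at 1 TPM or more, and 3 to 5 without each plate (5 without plate 1). The 4 Notch genes were 2 with the stricter fibroblast rule, 2 without cells with markers of other types, 0 in matched cells, 2 without cells with G2/M genes, 2 with Xist under 1 TPM, 1 with Xist at 1 TPM or more, and 4 to 5 without each plate. The 3 BMP antagonists were 1 with the filter at 20 TPM, and the 3 hedgehog co-receptors were 1 without cells with G2/M genes and 0 with Xist under 1 TPM, and both stayed at 3 without each plate. The cause was not tested. Of 1632 folds recomputed for 96 genes under 17 settings, 19 had the other sign, in 6 genes. Only 1 of these was of a gene that had been called, Hist1h1b, at 0.16 without cells with G2/M genes, where Top2a was at 0.30 and Gal at -0.10; the others were of Tbx18, Ncam1 and Enpp2, whose folds lay near 0. Of the 20 named higher genes 19 had a fold of at least 1 under all 17 settings, and of the 20 named lower genes 12 had -1 or less. Folds were taken within each plate, so groups were already compared plate by plate, and the values with plates pooled are those without it; no replicate numbers pair single cells.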

Other observations

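Sox2 at 10 TPM or more was also found outside the fibroblast-like cells, in cells of other kinds at other stages. At E11.5 there were 14 such cells, all with Sox10 at 10 TPM or more, and 14 of 14 also held Gfra1. At E13.5 there were 4, again all with Sox10. At E15.0 there were 16, of which 9 held Sox10 and 7 held Atoh1, the Merkel cell factor, and at E17.0 there were 13, of which 9 held Sox10 and 4 held Atoh1. None of the cells at these stages held Tbx18 at 10 TPM. At E13.0 only 2 such cells were found, both with Col3a1 and Tbx18 at 10 TPM and neither with Sox10 or Atoh1, so Gfra1 was shared with Sox10-bearing cells of other stages while Tbx18 was not.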
